A study of Mus musculus with 3 samples.

Results

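The genes described here are those that the authors' deposited table lists only by non-coding transcripts: every row of such a gene carries a RefSeq accession beginning NR, and none carries one beginning NM, the prefix of coding transcripts. Symbols that start with Zfp, Hist, Slc, Rpl or Rps were left out, which removed 12 genes. This left 599 of the 11886 genes in the table, with 655 transcripts, and 558 of them had a single transcript. RefSeq's gene table, matched for 594 of the 599, types 401 as lncRNA, 107 as transcribed pseudogenes, 13 as snoRNAs and 8 as miRNAs. It types 55 as protein-coding, among them Cenpa, Srsf3, Ogg1, Ndufs6 and Ndst3, so for those the label holds only for the transcript that the table lists. A further 432 non-coding transcripts belong to genes that also have a coding transcript and are not described.

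The study measured RNA of mT3-2D-GFP cells, a murine KPC pancreatic cancer line of C57BL/6 origin that carries green fluorescent protein (GFP), by poly(A)-selected stranded RNA sequencing. The first of the 3 groups was the line in culture, in DMEM with fetal bovine serum. The second was GFP-positive cells sorted from tumours of this line in B6.CB17-Prkdcscid/SzJ mice (SCID), which lack mature T and B cells, and the third was cells sorted in the same way from tumours in C57BL/6 mice (WT). All 3 groups hold the same line. The SCID pool combined 5 tumours and the WT pool 6, so each group was 1 library, tumours gave no spread, no test between groups was possible and no p-value is given. The tumour cells were sorted and the labels describe no sort of the cultured cells, so growth in a mouse and the handling of the cells cannot be told apart.

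Each value is a log2 fold change from the authors' deposited table, averaged over the transcripts of a gene, in one of these forms: SCID pool minus line, WT pool minus line, or WT pool minus SCID pool. The table gives no level in any single library and no counts, so the depth behind a value is unknown and a gene's abundance cannot be read from it. Both tumour comparisons use the same line library and the third is their difference, so the 3 values of a gene are not independent of each other. Where a gene had several transcripts, their values had a pooled SD of 0.32 for SCID minus line, 0.29 for WT minus line and 0.25 for WT minus SCID. A difference of this size between genes is within the spread of transcripts of 1 gene. Fewer cells of a type and less RNA per cell cannot be told apart in such bulk samples.

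Genes without a coding transcript differ widely in what their RNA does. Long non-coding RNAs such as Neat1 and Malat1 stay in the nucleus, where Neat1 is the scaffold of paraspeckles and Malat1 gathers in splicing speckles. Other transcripts are carriers: their introns or exons hold small nucleolar RNAs (snoRNAs), which guide modification of ribosomal RNA, or microRNA hairpins, which are cut into mature microRNAs that pair with target mRNAs through the seed, bases 2 to 8. Transcribed pseudogenes resemble a coding parent gene, and reads from both can be hard to separate.

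The microRNAs below come from the 3 carriers that were at least 2-fold higher in the SCID pool than in the line (C430049B03Rik, Dleu2 and A330023F24Rik) and from 3 carriers with values above 0 in both pools (Lncppara, Mir22hg and Mir17hg), and they were chosen with values known. Sequences are RefSeq's mature forms on GRCm38.p6, written 5′ to 3′ with the seed in capitals, and they are grouped by shared seed. The first pair shares the seed of the miR-15/16 family, and miR-503-5p comes from the same carrier as miR-322-5p with another seed.
miR-16-5p: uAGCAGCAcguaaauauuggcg
miR-322-5p: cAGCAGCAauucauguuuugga
miR-503-5p: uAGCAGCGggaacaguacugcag
miR-29b-3p: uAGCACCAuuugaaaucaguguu
miR-29c-3p: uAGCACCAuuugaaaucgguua
let-7b-5p: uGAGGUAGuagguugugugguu
let-7c-5p: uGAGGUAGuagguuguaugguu
miR-22-3p: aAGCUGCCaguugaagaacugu
miR-92a-3p: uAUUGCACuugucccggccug

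Against the cultured line, the members stood higher as a group, and mostly through the lncRNAs. Of the 599 members, 34 (5.68%) were at least 2-fold higher and 5 (0.835%) at least 2-fold lower in the SCID pool, beside 3.65% and 2.62% of all genes. In the WT pool 26 members (4.34%) were higher and 3 (0.501%) lower, beside 4.12% and 2.03% of all genes. The share higher in the WT pool is thus close to that of all genes, while the shares lower are smaller in both pools. The whole distribution was shifted: the median log2 value was 0.19 for SCID minus line and 0.17 for WT minus line, against -0.02 and -0.01 for all genes. Above 0 were 418 members (69.8%) in the SCID pool and 393 (65.6%) in the WT pool, against 48.3% and 48.6% of all genes. At 1.5-fold, 110 members were higher and 21 lower in SCID, beside 11% and 9.43% of all genes, and 114 and 22 in WT, beside 11.3% and 8.36%. The shift of the median is smaller than the SD between transcripts of 1 gene and shows only over many genes.

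Between the tumour pools the members differed less than against the line. No member was 2-fold higher or lower in WT than in SCID, where 0.303% of all genes were higher and 0.0168% lower. The median was -0.02 for the members and 0.00 for all genes, and single members ran from -0.63 (Snora74a) to 0.81 (E230013L22Rik). At 1.5-fold, 1 member was higher, E230013L22Rik, and 2 were lower, Snora74a and Dand5, beside 1.1% and 0.177% of all genes. Of the 39 members at least 2-fold higher than the line in either pool, 21 were so in both, 13 in SCID alone and 5 in WT alone. Over all genes the split ran the other way: of 572, 352 were so in both, 82 in SCID alone and 138 in WT alone. The 13 had values from 0.72 to 0.996 in WT, and the 5 had values from 0.62 to 0.98 in SCID, so each lay on the same side of 0 in both pools, as the plot of these members shows.

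**Figure D1:**
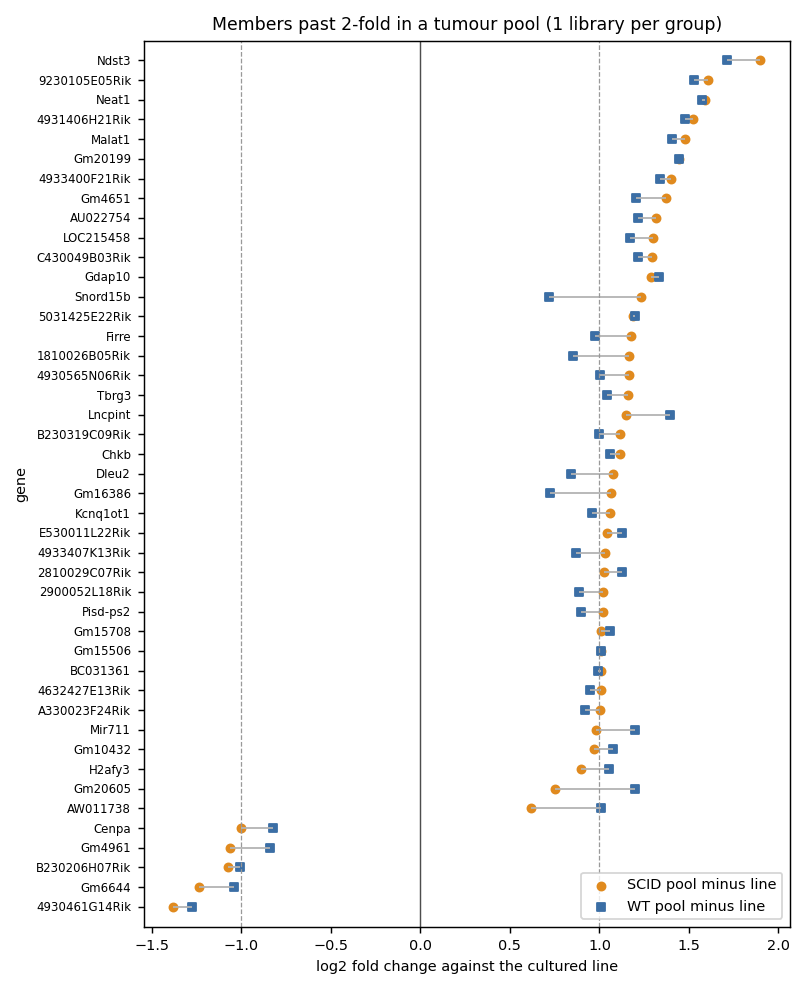
The 44 members at least 2-fold higher or lower than the cultured line in either tumour pool; the horizontal axis is the log2 fold change against the line, circles are the SCID pool and squares the WT pool, each from 1 library. Dashed lines mark 2-fold, and 39 genes lie on the right and 5 on the left.

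By RefSeq type, the 401 lncRNAs had a median of 0.27 for SCID minus line and 0.26 for WT minus line, and 312 of them (77.8%) were above 0 in the SCID pool. They make up 401 of the 599 members and held 29 of the 34 past 2-fold higher in the SCID pool and 22 of 26 in the WT pool. As shares of the lncRNAs these were 7.23% and 5.49%, beside 3.65% and 4.12% of all genes. The 107 transcribed pseudogenes had medians of -0.04 and -0.02, near that of all genes, with 49 above 0 in the SCID pool. The 55 members that RefSeq types as protein-coding had medians of 0.05 and -0.07. The difference between lncRNAs and pseudogenes is seen along the whole range in the cumulative plot.

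**Figure D2:**
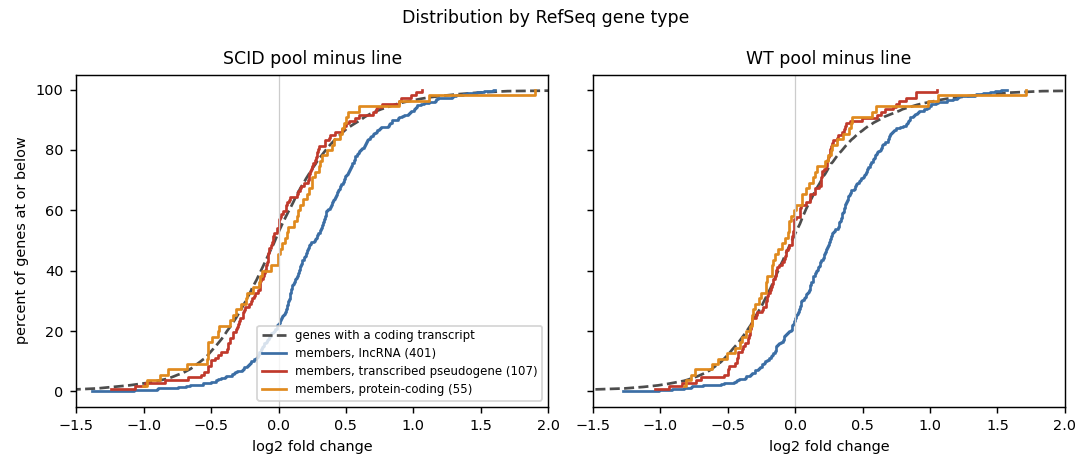
Percent of genes at or below each log2 fold change, for SCID pool minus line (left) and WT pool minus line (right), by RefSeq gene type; the dashed curve is all genes with a coding transcript. Over most of its range the lncRNA curve lies to the right of the others, with a median of 0.27 in the SCID pool, while the transcribed pseudogenes follow the coding genes.

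By type of symbol, the largest groups had similar medians and the small groups ranged more widely. Genes named only by a clone (Rik, 255 genes) had medians of 0.19 and 0.22 against the line in SCID and WT, and those named by a gene model number (Gm, 144 genes) 0.21 and 0.15. The 102 other named genes stood at 0.20 and 0.14. Of these, 12.7% in SCID and 10.8% in WT were at least 2-fold higher, beside 3.47% and 4.17% of the Gm genes. The 37 symbols with an antisense ending stood at 0.16 and 0.13. None of them was past 2-fold, where 3.65% of all genes were higher in SCID and 4.12% in WT. Gas5 and Minos1 fall in by their letters alone, and the other 35 had a median of 0.16 in both pools. The 23 pseudogene symbols stood at 0.04 and 0.03, and the 8 microRNA hairpin symbols at -0.09 and -0.17. The 3 microRNA host symbols had the highest medians, 0.66 and 0.83. The 12 small nucleolar RNA host genes (Snhg) had medians of 0.07 and -0.07, and the 15 small nucleolar or Cajal body RNAs 0.40 and 0.03.

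**Figure D3:**
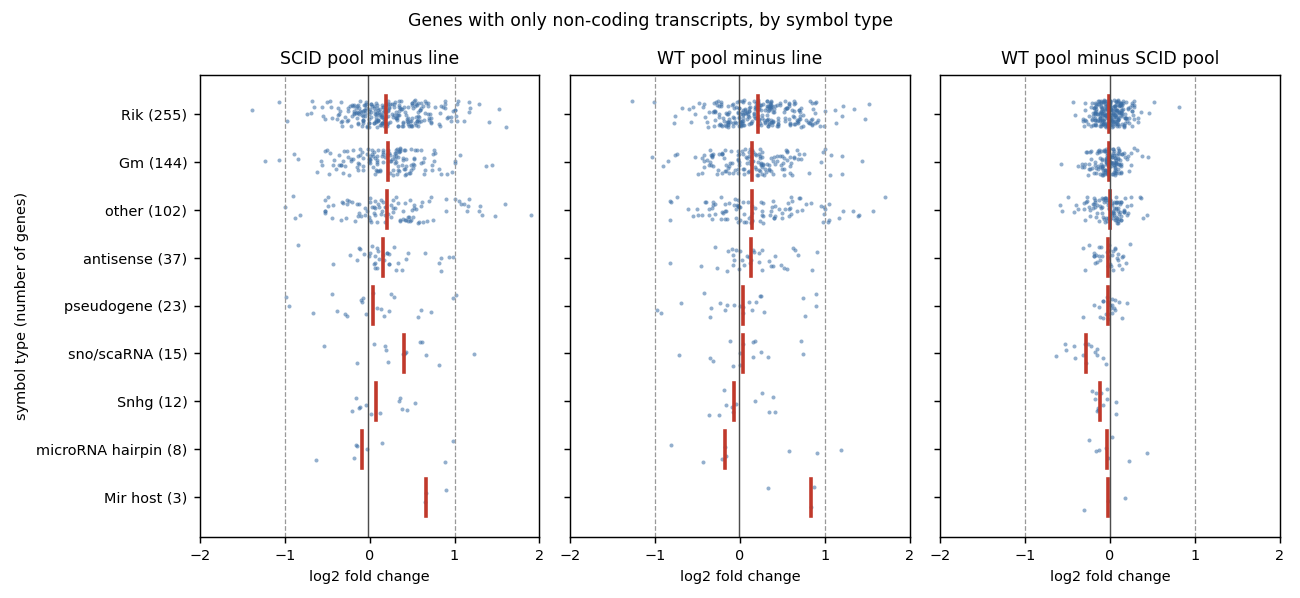
Log2 fold change of each of the 599 members (points) by symbol type in the 3 comparisons, with the group's median as a red bar, the median of all genes as a grey line and 2-fold as dashed lines. The small nucleolar and Cajal body RNAs are the group whose points all lie below 0 in WT minus SCID.

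Neat1 and Malat1, neighbours on chromosome 19, were among the highest members. Neat1, at chr19:5824710-5845480 on the minus strand, had log2 values of 1.59 in the SCID pool and 1.57 in the WT pool against the line, a 3.01-fold and a 2.97-fold higher value. Its long transcript, the form that builds paraspeckles, stood at 1.97 and 1.88, and the short one at 1.21 and 1.26, so both forms were past 2-fold. The short form lies within the long one, and reads of the shared part cannot be assigned to either. Malat1, at chr19:5795690-5802672, 22038 bases from Neat1, had values of 1.48 and 1.41. Frmd8, the coding gene nearest to Neat1 in the table, stood at 0.24 and 0.30. Between the tumour pools Neat1 differed by -0.02 and Malat1 by -0.07.

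The other RNAs listed with Neat1 and Malat1 did not all follow. Firre, an X-linked RNA that organises nuclear contacts, had values of 1.17 in SCID and 0.98 in WT. Tug1 had 0.47 and 0.18, and 1700020I14Rik, the RNA also called Cyrano, -0.01 and 0.04. Of the 5 RNAs measured out of 9 listed, 3 were past 2-fold in SCID and 2 in WT, beside 3.65% and 4.12% of all genes. Among the protein partners of Neat1 values were lower. None of 15 measured paraspeckle protein genes was past 2-fold, their medians were -0.13 in SCID and -0.19 in WT, and Nono stood at -0.22 and -0.24. Hnrnph3 had the highest value of them, 0.70 in SCID and 0.36 in WT.

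The promoter of Malat1, 300 bases at chr19:5802623-5802922 on the minus strand of GRCm38.p6, is shown with that of 4931406H21Rik, at chr14:25586554-25586853 on the plus strand, because both genes were past 2-fold in both pools and only the second held a searched motif. Capitals mark a match to the AP-1 motif TGANTCA.
Malat1: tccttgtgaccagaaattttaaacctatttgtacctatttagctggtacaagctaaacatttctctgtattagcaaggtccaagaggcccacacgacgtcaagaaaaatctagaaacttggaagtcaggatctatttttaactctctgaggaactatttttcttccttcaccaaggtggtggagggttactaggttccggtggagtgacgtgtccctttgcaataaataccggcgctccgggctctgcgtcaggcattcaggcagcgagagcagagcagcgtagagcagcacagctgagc
4931406H21Rik: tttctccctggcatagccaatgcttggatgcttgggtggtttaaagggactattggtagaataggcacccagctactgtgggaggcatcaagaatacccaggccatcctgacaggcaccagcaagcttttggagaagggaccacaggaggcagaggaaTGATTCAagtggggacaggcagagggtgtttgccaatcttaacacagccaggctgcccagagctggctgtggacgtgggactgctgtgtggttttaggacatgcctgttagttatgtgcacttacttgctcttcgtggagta

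The share of promoters with a searched motif is given as a description, since 31 promoters are too few to set the shares apart. The 31 promoters are those of members at least 2-fold higher than the line in either pool, and they belong to 30 genes. Of these promoters, 1 (3.23%) held AP-1, TGANTCA, against 7.81% of 32851 promoters in RefSeq's table. The E-box CACGTG was in 3 (9.68%) against 7.15%, and TGACGTCA (CRE), TGATGNAAT (ATF4) and TTCNNNGAA (GAS) were in none, against 1.79%, 0.965% and 8.30%. Over the promoters of all matched members, AP-1 was in 7.23%, the E-box in 47 of 429, CRE in 2.80%, ATF4 in 0.466% and GAS in 6.53%. Both strands were searched and motifs were counted separately. The 429 promoters of all members that matched had a GC content of 58.8%, against 53.8% over all promoters.

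Imprinted and chromatin-linked RNAs were higher in part. Kcnq1ot1, which is expressed from the paternal chromosome and silences neighbouring genes, stood at 1.06 in SCID and 0.96 in WT. Nespas, an antisense RNA at the Gnas locus, stood at 0.93 and 0.91, while Gnas stood at 0.21 and 0.17. Peg13, an imprinted RNA within Trappc9, stood lower, at 0.35 and 0.46. Jpx and Ftx, RNAs of the X inactivation centre that act on Xist, stood at 0.40 and 0.19 in SCID and at 0.14 and 0.14 in WT, within the spread of transcripts of 1 gene for Ftx.

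RNAs linked to p53, MYC and stress differed among themselves. Lncpint, a p53-induced RNA, stood at 1.15 in SCID and 1.39 in WT, and it was past 2-fold in both. Pvt1, the neighbour of Myc, stood at 0.52 and 0.53, with Myc at -0.07 and -0.17. Its 3 transcripts did not move alike between the tumour pools: 1 stood at 0.57 in WT minus SCID, and the others at -0.32 and -0.20. Mirt1 stood at 0.63 and 0.57, and Dancr, an RNA known for restraining differentiation, at -0.03 and -0.33. Of the 7 RNAs measured out of 27 listed, 6 were above 0 in each pool, beside 48.3% of all genes in SCID and 48.6% in WT. Past 2-fold was 1, Lncpint, beside 3.65% and 4.12% of all genes.

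The members that hold a microRNA hairpin were higher than the line nearly throughout. By position, 17 members held 25 hairpins with 46 mature microRNAs; the 3 hairpins of Mirc35hg lie within RefSeq's span of that gene but outside the span in the deposited table. All 17 were above 0 in the SCID pool, with a median of 0.63, and 16 in the WT pool, with a median of 0.49. Of all genes 48.3% and 48.6% were above 0, and of all lncRNA members 77.8% and 76.1%. The set of 17 was formed after values were seen and takes in Cbwd1 and Map4k2, which RefSeq types as protein-coding. Past 2-fold were 3 in SCID (17.6%) and 1 in WT (5.88%), beside 3.65% and 4.12% of all genes. The WT share is thus close to that of all genes. C430049B03Rik, at chrX:53053112-53057190 and the carrier of miR-322 and miR-503, stood at 1.29 in SCID and 1.21 in WT. Dleu2, at chr14:61602836-61682373 and the carrier of miR-16-1, stood at 1.08 and 0.84. A330023F24Rik, at chr1:195017399-195037908, carries miR-29b-2 and miR-29c and stood at 1.00 and 0.92. The carriers of the seeds AGCAGCA and AGCACCA thus lay between 0.84 and 1.29.

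The gene values of the other carriers lay under 2-fold in both pools. Mir22hg, the host of miR-22, stood at 0.90 in SCID and 0.87 in WT. Lncppara, which holds let-7b and let-7c-2, stood at 0.68 and 0.73. Mir17hg, here with the hairpin Mir92-1, stood at 0.65 and 0.34. 3110039I08Rik, which holds miR-100, let-7a-2 and miR-125b-1, stood at 0.77 and 0.60 as the mean of its transcripts. Its longer transcript, which alone spans miR-100 and let-7a-2, stood at 1.19 and 1.06, past 2-fold in both pools. The shorter one stood at 0.36 and 0.13. Between the tumour pools 6 of the 17 were above 0, with a median of -0.08. Mature microRNAs were not measured, and a carrier's value is not a microRNA level. Among 17 measured coding genes of microRNA processing, Zcchc11, which adds uridines to let-7 precursors, stood at 1.57 and 1.42, while Xpo5, which exports hairpins from the nucleus, stood at -0.65 and -0.63.

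One hairpin lies in a coding gene that differed with it. Mir711, at chr9:108969922-108970003, had a log2 value of 0.98 in SCID and was 2.29-fold higher in WT, and it overlaps Col7a1, a collagen gene on the same strand, which stood at 1.31 and 1.32. Reads of the Col7a1 transcript and of the hairpin cannot be told apart, so the value of Mir711 is not a hairpin level. Of the 8 hairpin symbols Mir711 was the only one past 2-fold, and in WT alone (12.5%, beside 4.12% of all genes).

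The snoRNA host genes showed no shift like that of the lncRNAs. Of 17 measured hosts, none was past 2-fold, where 3.65% of all genes were higher in SCID and 4.12% in WT. A count of none among 17 is close to such shares. The hosts' medians were 0.12 in SCID and -0.05 in WT against the line. Snhg17 was the highest in SCID, at 0.53, and stood at 0.39 in WT, and Snhg3 was the lowest, at -0.21 and -0.36. In WT minus SCID, 15 of the 17 hosts were below 0, with a median of -0.14. Gas5, whose introns hold several snoRNAs, stood at 0.20 and 0.05, and Zfas1 at 0.31 and 0.13. The coding partners that bind snoRNAs stood lower: all 13 measured snoRNP protein genes were below 0 in both pools, with medians of -0.58 and -0.53. Dkc1, the pseudouridine synthase, stood at -0.90 in both. Genes of nonsense-mediated decay, the pathway that degrades many snoRNA host transcripts, had medians of -0.12 and -0.11 over 16 genes.

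Small nucleolar and Cajal body RNAs, with Rmrp, Rpph1 and Terc, stood below 0 between the tumour pools. So did most snoRNA hosts and most other short genes, whose medians lay nearer to 0. The 15 small nucleolar or Cajal body RNAs and Rmrp, Rpph1 and Terc, the RNA parts of RNase MRP, RNase P and telomerase, were all 18 below 0 in WT minus SCID. Their median was -0.30, beside 0.00 for all genes. None was past 2-fold, where 0.303% of all genes were higher and 0.0168% lower. Snora74a stood at -0.63, Snora7a at -0.53 and Snord15b at -0.52. Rpph1 stood at -0.43, Rmrp at -0.41 and Terc at -0.38. Most of these lie within a host, and all 13 with a measured host were below it. Some of these gaps lay within the spread of transcripts of 1 gene. Snora44 stood at -0.05 and its host Snhg12 at -0.04, and Snora23 at -0.23 and its host Ipo7 at -0.17. The hosts had a median of 0.00: Snord15b and Snord15a lie in Rps3, which stood at 0.00, and Snora7a in Rpl32, at -0.01.

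Against the line the same RNAs differed by pool. In SCID 15 of 18 were above 0 with a median of 0.39, and in WT 9 of 18 with a median of 0.02. Snord15b stood at 1.23 in SCID and 0.72 in WT, while Snord15a, a close relative from the same host, stood at 0.19 and -0.12. Snord22, in Snhg1, was the lowest at -0.54 and -0.72. These RNAs span under 500 bases and their mature forms lack a poly(A) tail, whereas the libraries were selected for poly(A). Coding or other genes as short as these, 44 in number and mostly histones, had a median of -0.07 in WT minus SCID, with 36 below 0, and of -1.58 in SCID minus line. The small RNA set was formed after values were seen and leaves out the 8 microRNA hairpins, which are also short. Of those, 3 were above 0 in WT minus SCID, with a median of -0.04. Over all 29 members spanning under 500 bases, 26 were below 0 there, with a median of -0.23. The part that library preparation has in these values was not tested.

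**Figure D4:**
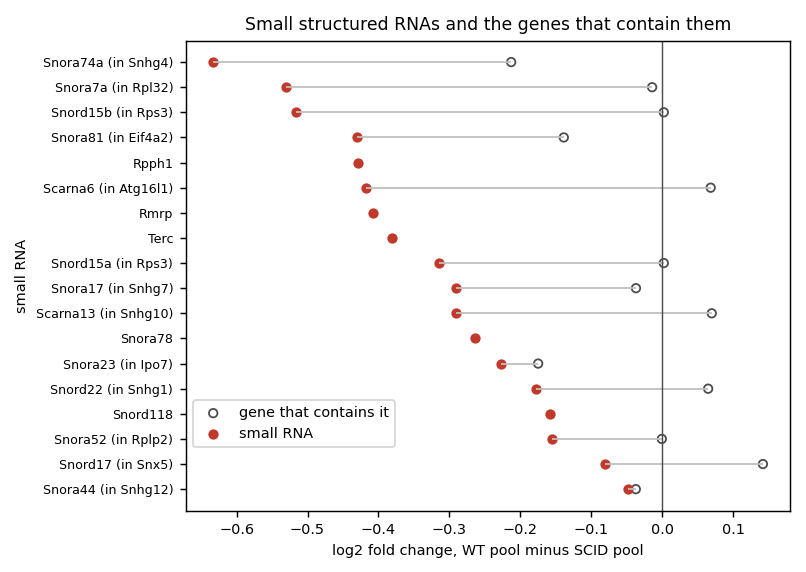
Log2 fold change in WT pool minus SCID pool for 18 short RNAs (filled) and, for 13 of them, the gene that contains them (open), with 1 library per pool. The 18 are the small nucleolar and Cajal body RNAs with Rmrp, Rpph1 and Terc. All filled points lie below 0 and to the left of the open point of the same row.

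The highest members against the line included lncRNAs within or opposite coding genes, a position with a similar share among all members: by GENCODE, 14 of the 34 members 2-fold higher in SCID overlapped no coding gene, as did 271 of the 599. Ndst3, a heparan sulfate enzyme gene that RefSeq types as protein-coding, was first at 1.90 in SCID and 1.71 in WT. 9230105E05Rik, at chr10:120389523-120392793, lies opposite Hmga2, an architectural chromatin protein gene, and stood at 1.61 and 1.53 with Hmga2 at 0.37 and 0.28. Gm4651 and LOC215458 both lie opposite Mical3 and stood at 1.37 and 1.30 in SCID, with Mical3 at 0.97. AU022754, opposite Wnt7b, a Wnt ligand gene, stood at 1.32 and 1.21, and Wnt7b at 0.75 and 0.86. Reads in the shared stretch cannot be assigned to either gene of such a pair unless strand was used in counting.

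Members inside introns of a coding gene on the same strand had a higher median than all members. Of 36 such members spanning 500 bases or more, 6 were past 2-fold in the SCID pool and 6 in the WT pool (16.7%), beside 3.65% and 4.12% of all genes and 5.68% and 4.34% of all members, with medians of 0.41 and 0.37. For the 32 with a measured host, the hosts had medians of 0.12 and 0.09, and no host was past 2-fold. Gdap10, within Nampt, stood at 1.29 and 1.33 and Nampt at 0.06 and 0.07. Gm20199, within Arih1, stood at 1.44 in both pools and Arih1 at 0.23 and 0.13. 4931406H21Rik, within Zmiz1, stood at 1.52 and 1.48 and Zmiz1 at 0.48 and 0.57. Reads of an unspliced host transcript and of the member cannot be told apart, and positions were taken from GENCODE on GRCm38 after values were seen.

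The lowest members were few. 4930461G14Rik stood at -1.38 in SCID and -1.27 in WT, and B230206H07Rik at -1.07 and -1.01, opposite Eps8l2, which stood at -1.28 and -1.10. Gm4961, a pseudogene, stood at -1.07 and -0.84. Cenpa, the centromeric histone, was 2.01-fold lower in SCID and stood at -0.82 in WT, and is typed as protein-coding. Gm6644 stood at -1.24 and -1.04, but its place in the table, at Akr1b3, differs from RefSeq's. No member was lower by 2-fold in the WT pool alone.

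Against the line, values of members and of the coding genes they overlap on the other strand were more alike in rank than those of separate neighbours. Over 207 pairs with opposite-strand overlap, Spearman's rho was 0.51 for SCID minus line and 0.51 for WT minus line, across genes that share libraries. Over 93 pairs with divergent starts it was 0.26 for SCID minus line, over 52 with same-strand overlap 0.18, and over 243 without overlap 0.17. In WT minus SCID this order was not seen in rank: rho was 0.14 for opposite-strand overlap, 0.20 for divergent starts and 0.03 without overlap. Pearson's r for the same pairs was 0.30, 0.16 and 0.05, so the order depends on the statistic. The members' median was 0.23 in the overlapping pairs and that of the coding genes -0.02, so the shift of the members is present in these pairs too. Whether the counting used strand is not given in the sources used here, so reads of the shared stretch cannot be told apart, and their part in the relation was not tested.

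**Figure D5:**
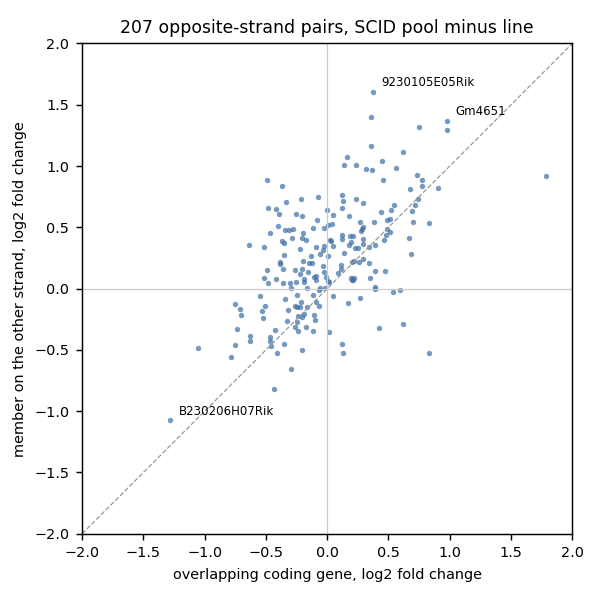
Log2 fold change, SCID pool minus line, of 207 members (vertical axis) and the coding gene each overlaps on the other strand (horizontal axis), from 1 library per group; the dashed line is equality. Of the members, 153 lie above it, and B230206H07Rik and Eps8l2 are low together.

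Pseudogenes mostly stood near their parents. Of 15 pseudogenes with a measured parent, 13 were on the same side of 0 in each comparison with the line, and the median absolute difference was 0.13 in SCID. Tyms-ps stood at -0.99 and -0.93 beside Tyms, thymidylate synthase, at -0.86 and -0.82 over its coding and its non-coding transcript, or at -0.78 and -0.75 for the coding transcript alone. Nutf2-ps1 was on the other side in both pools, at -0.95 in SCID with Nutf2 at 0.31. The deposited span of Nutf2-ps1, chr8:105860660-105879337, has Nutf2 itself as its nearest coding gene, and RefSeq gave no match. Whether its value belongs to the pseudogene is therefore uncertain. The further exceptions, Atp6v0c-ps2 in SCID and Morf4l1-ps1 in WT, lay close to 0. Pisd-ps1 and Pisd-ps2 stood at 0.98 and 1.02 in SCID. Reads of a pseudogene and its parent can be assigned to either, so these values are uncertain.

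Between the tumour pools the highest member was E230013L22Rik, at chr8:11477929-11480241, with 0.81 in WT minus SCID. It lies opposite Rab20, a small GTPase of endosomal trafficking, which stood at 0.89. Of 24 macrophage markers 6 were measured, and all 6 were above 0 in WT minus SCID, from 0.80 to 1.75. The other markers measured were 5 of 19 fibroblast genes, from -0.71 to 0.41, 4 of 16 endothelial genes, from -0.19 to 0.29, and 2 of 21 T cell genes, both at -0.01. Against the line in SCID, the fibroblast genes ran from 0.43 to 2.61 and the endothelial genes from 0.80 to 1.63. The part of other cells in the values of the members was not tested.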

How the data were processed

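RNA of 3 libraries was compared, 1 per group. The authors deposited a table of log2 fold changes between the libraries for 17910 RefSeq transcripts. No log base is named in the header; base 2 was assumed, since DESeq2 1.20.0, which reports on that scale, is among the tools in the submitters' processing notes. Partek, BWA and R 3.5.1 are named there too, with mm9 as build, while the table's coordinates match GRCm38 starts for 512 members. Not given in the sources used here are the function behind the fold changes, any shrinkage and the use of strand in counting. Values ran from -2.49 to 2.77, and how a value relates to a ratio of reads is unknown. The third column is the difference of the others (largest deviation 1.02e-14) and was reversed in sign, so that positive means higher in WT.

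A gene's value is the mean over its transcripts; a coding neighbour's is the mean over its coding transcripts. Python 3.11.15, pandas 2.3.3 and numpy 2.4.6 were used, and the scripts were tested on simulated data. A member counted as higher or lower at 2-fold or more. Neighbours were the nearest coding transcript in the table; 4 members with rows at several places were left out of positions. Positions inside genes used GENCODE, promoters and microRNAs RefSeq GRCm38.p6 (429 promoters of 381 members).

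The members and gene lists were chosen with earlier results of these data known; grouping by RefSeq type, by position and as small RNAs was chosen after values were seen. Named genes are the 8 highest and 8 lowest members per comparison, the 2 farthest from 0 in each symbol group, all measured members of the lists of non-coding RNAs, and for lists of coding genes the 2 farthest from 0; further genes are named as neighbours, hosts or parents of these or after their values were seen. Alternatives were the median or the farthest transcript, single-transcript genes, centring, other thresholds, removal of overlapping members and of a trend in span; those that leave out RefSeq protein-coding members, members under 500 bases or members at several places were added after seeing the data.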

Additional observations from a re-analysis of the deposited data

How the results depend on the processing

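No paired analysis was possible because each group has 1 library. The medians of the members moved by less than 0.1 on the log2 scale under each alternative run on them, as did those of the symbol groups under the 2 run on them, centring and the farthest transcript. At a 1.5-fold threshold, 110 members were higher and 21 lower in SCID against the line, 114 and 22 in WT, and 1 and 2 in WT against SCID. At 4-fold, 0 members were higher or lower in either comparison with the line. Without members classed as overlapping a coding gene, 340 members remained. These include all members with divergent starts and the 4 with rows at several places, whose overlap was not determined. Of the 340, 17 (5.00%) were higher and 3 lower in SCID, and 11 (3.24%) were higher and 1 lower in WT. The shares higher were smaller too: over all 599 members they were 5.68% in SCID and 4.34% in WT, beside 3.65% and 4.12% of all genes. The WT share of the 340 thus lay below that of all genes. With the span trend removed, 3 members were lower in SCID; the cause was not tested. Of 765 alternative values of 85 named members, 758 lay within 1 transcript SD and 7 did not, all with the farthest transcript: 1110038B12Rik at -0.81 in WT minus SCID, Pvt1 at 0.57 there and 0.88 in WT minus line, Tug1 at -0.58 and 0.53, and Neat1 at 1.97 in SCID and 1.88 in WT minus line. The depth behind each value is unknown, so no limit from depth can be given.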
